A study of Mus musculus with 6 samples.

Results

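The 44 genes described here encode the non-collagen part of the extracellular matrix: basement membrane components, elastic fibre and microfibril proteins, lysyl oxidases, matricellular proteins, small leucine-rich proteoglycans, and the hyaluronan and versican matrix with lubricin. They were taken by gene symbol from a table of 20893 genes, and all 44 were found. The rule itself uses no measured value, but the genes were chosen with earlier results of these data known. Shares among them are therefore descriptions and not those of a blind choice. RNA-seq libraries from hearts of C57BL6/J mice were compared, 3 labelled R1KO, in which Rbpms is knocked out, and 3 labelled wildtype. The labels name no Cre driver, treatment or further allele and do not say which part of Rbpms is deleted, and the design text describes the controls as littermates. The hearts are called embryonic in the title of the series and neonatal in its design text, and no age is given. Each group holds libraries of both sexes, by Xist, and so at least 2 animals, but separate animals for all 3 are not stated. The p-values thus cover the spread between these libraries, part of which may be technical.

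The matrix of the developing heart is laid down mainly by fibroblasts, endothelial, valve, epicardial and smooth muscle cells. Laminins and nidogens, with perlecan and agrin, build the sheets of basement membrane around cardiomyocytes and vessels. Elastin is deposited on fibrillin microfibrils and crosslinked by lysyl oxidases, while versican and hyaluronan form the hydrated matrix of the cushions and trabeculae. RBPMS is an RNA-binding protein whose family is known to bind pairs of CAC triplets in transcripts and to regulate splicing in muscle cells.

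The table gives reads scaled by a library-wide factor and rounded, called scaled reads below. Undoing the scaling gave 4163230 to 5805783 reads per library. Rbpms held 375, 340 and 507 scaled reads in knockout replicates 1, 2 and 3 and 1182, 1176 and 1317 in the wildtype replicates, lower in every library labelled R1KO (log2 fold change -1.61, limma adjusted p = 0.0124). Knockout replicate 3 and wildtype replicate 1 held 1763 and 1770 scaled reads of Xist and are female, and the other 4 libraries held between 2 and 14. Of 14974 tested genes, 141 were called changed, and leaving out knockout replicate 3 or 2 raised this to 727 and 510. Knockout replicate 3 held the lowest sum of 8 epicardial and mesothelial markers, 1013 against 1764 to 1974 in the other 5. Fits without it are given below for genes in which it lay far out or decided the call.

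All 44 genes reached at least 10 scaled reads in at least 3 libraries and were tested. After adjustment over all 14974 genes, 2 of the 44 rose in knockout hearts and 0 fell, by limma at an adjusted p under 0.05. These were Prg4, which encodes lubricin, and Hmcn2, which encodes hemicentin 2. Over all tested genes 0.942% passed the same threshold, 0.508% higher and 0.434% lower in knockout. Before adjustment, 11 of the 44 were higher and 1 was lower at a p under 0.05, against 16.4% of all genes in either direction. In 13 of the 44 every knockout library lay above every wildtype library, against 11.0% of all genes. In 1, Lama5, every knockout library lay below, against 10.9%. The median log2 fold change was 0.07 over the 44 genes and -0.0009 over all tested genes, and 29 of the 44 values were above 0, against 49.8% of all genes. In bulk tissue, fewer cells of a type and less RNA per cell cannot be told apart.

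The knockout libraries differed among themselves in how many of the 44 genes left the wildtype range. Knockout replicate 1 held 17 genes above the highest wildtype library and 13 below the lowest, against 29.3% and 29.8% of all tested genes. Knockout replicate 2 held 28 above and 2 below, against 27.9% and 28.7%. Knockout replicate 3 held 21 above and 11 below, against 35.0% and 33.8%. The imbalance between higher and lower genes was greatest in knockout replicate 2. The median log2 distance of the 44 genes from the wildtype mean was -0.02, 0.15 and 0.05 in knockout replicates 1, 2 and 3. Without knockout replicate 2 the median fold change of the 44 genes was 0.006 on the log2 scale. Without knockout replicate 3, both remaining knockout libraries lay above all wildtype libraries in 15 of the 44 genes and below in 2, against 17.1% and 18.0% of all tested genes. The test then passed 6 of the 44 genes, all higher in knockout (Fbn2, Hmcn2, Mfap5, Prg4, Thbs1 and Vcan), against 4.86% of all tested genes. Without knockout replicate 2 it passed 5, with Hmcn2, Mfap5 and Prg4 higher and Fmod and Lum lower, against 3.41%. With a term for sex it passed 3 (Hmcn2, Prg4 and Thbs1), against 1.49%, and among the 4 male libraries 4 (the same 3 and Fbn2), against 1.71%.

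**Figure D1:**
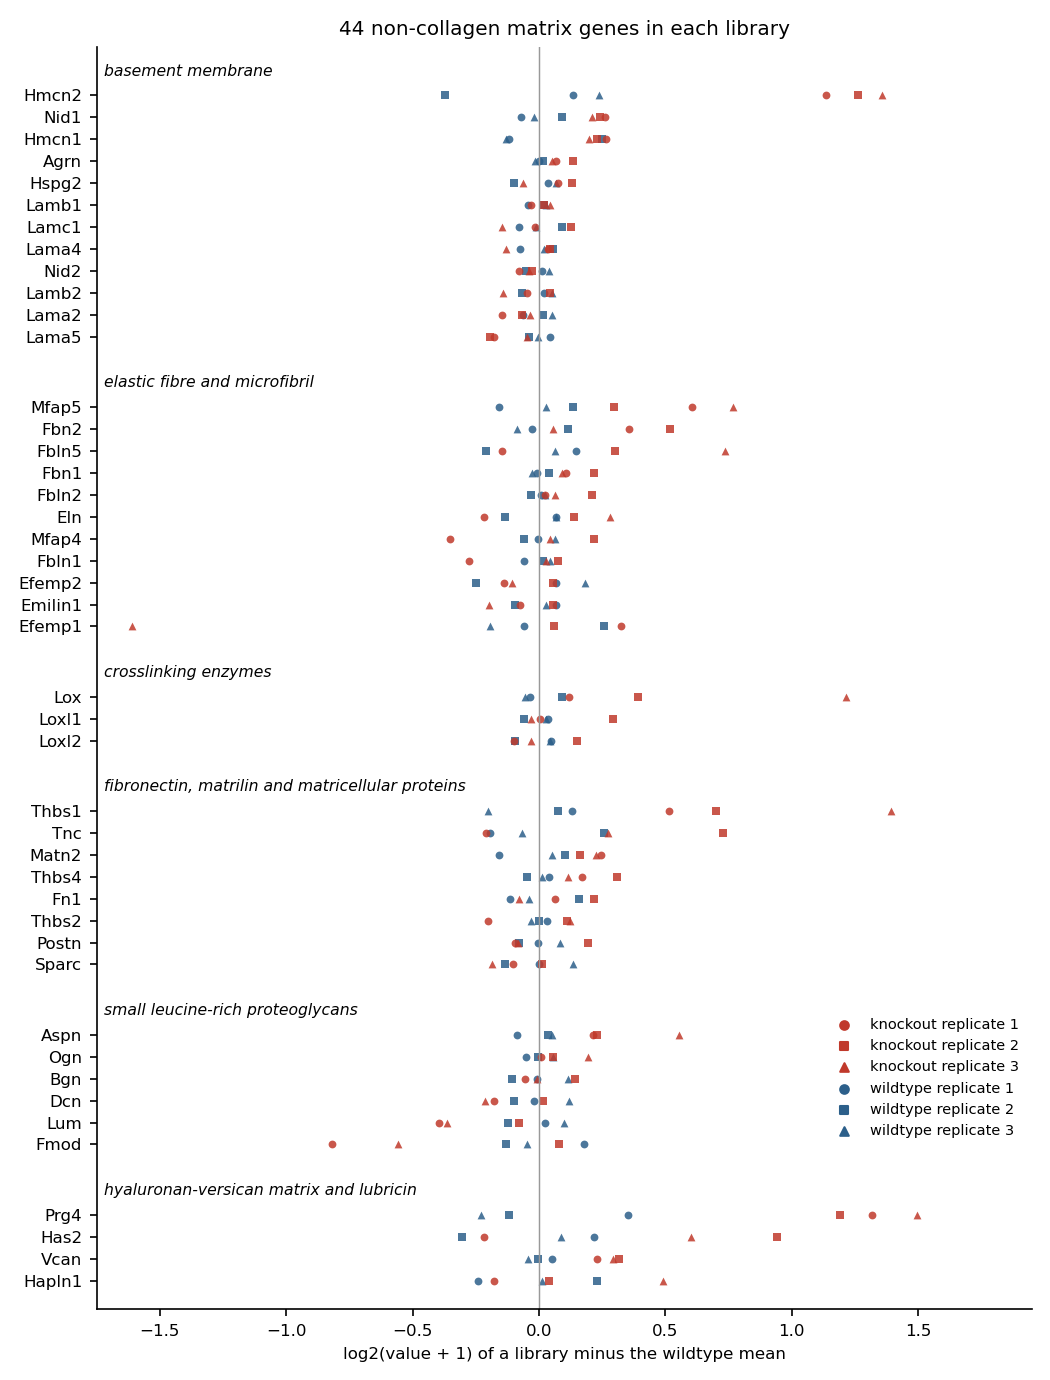
Each row is a gene, grouped by role, and each point is a library: the horizontal axis gives log2(value + 1) in that library minus the mean of the 3 wildtype libraries. Prg4 and Hmcn2 have all 3 knockout points (red) well to the right of the wildtype points (blue), and most other rows overlap around 0, with knockout replicate 3 (red triangles) far out for Thbs1, Lox and Efemp1.

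Because the RBPMS family is known to bind pairs of CAC triplets, annotated 3′ UTRs of the 44 genes were searched for CAC, 1 to 10 bases of any kind and CAC, on the strand of the transcript and counting overlapping matches. The sequences come from the GENCODE M21 annotation of GRCm38, whereas the deposited table uses mm39. The shortest match, or the first of equally short ones, is shown here for 6 of the genes with higher values in knockout libraries. The CAC triplets are in capitals and the other bases in lower case, 5′ to 3′.
Prg4, chr1:150449796-150449819, reverse strand: cttattCACatgtgtCACagttta
Hmcn2, chr2:31460678-31460704, forward strand: gactggCACtgtcctgacCACatggaa
Vcan, chr13:89655950-89655969, reverse strand: cgttttCACttCACccttca
Mfap5, chr6:122528989-122529009, forward strand: tgtactCACtttCACcatgct
Nid1, chr13:13510274-13510292, forward strand: gcaggaCACaCACacacac
Thbs1, chr2:118125372-118125390, forward strand: gagcagCACaCACagaagc
Among the matches shown, the stretch between the triplets was longest in Hmcn2, and in Nid1 and Thbs1 the match lay in a run of alternating C and A. Because the shortest match was picked, these lengths depend on how many matches a gene holds and do not compare the genes. Prg4 held 2 such matches, Hmcn2 1, Vcan 4, Mfap5 3, and Nid1 and Thbs1 8 each, whereas Aspn held 0. The letters occurred in 31 of the 44 genes (70.5%) and in 9566 of 12997 tested coding genes (73.6%). Pooled over the genes, their 3′ UTRs held 3.90 matches per kb against 3.17 per kb in all tested coding genes, with median lengths of 761 and 995 bases. Bgn, Has2 and Hspg2 held the most matches, 25, 23 and 21, and none of them passed the test. The pooled value thus rests in large part on a few genes. A match is a description of the letters and not a binding site.

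Promoters were compared in the same way, in a window from 250 bases before to 50 after the start of transcription (RefSeq, GRCm38.p6), which covered 27 of the 44 genes with 34 promoters. The promoters of Hmcn2 and Nid1 are shown as examples, with a searched motif in capitals. Hmcn2 passed the test, and Nid1 had a smaller p than Thbs4, the other gene that lay higher in every knockout library and holds a motif here.
Hmcn2, chr2:31314082-31314381, forward strand: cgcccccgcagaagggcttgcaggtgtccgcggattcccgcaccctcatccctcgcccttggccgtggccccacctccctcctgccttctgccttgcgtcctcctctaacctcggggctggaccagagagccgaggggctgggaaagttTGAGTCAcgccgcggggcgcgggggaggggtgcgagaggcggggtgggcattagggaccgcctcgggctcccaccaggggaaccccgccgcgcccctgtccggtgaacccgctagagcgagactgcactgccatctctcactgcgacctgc
Nid1, chr13:13437352-13437651, forward strand: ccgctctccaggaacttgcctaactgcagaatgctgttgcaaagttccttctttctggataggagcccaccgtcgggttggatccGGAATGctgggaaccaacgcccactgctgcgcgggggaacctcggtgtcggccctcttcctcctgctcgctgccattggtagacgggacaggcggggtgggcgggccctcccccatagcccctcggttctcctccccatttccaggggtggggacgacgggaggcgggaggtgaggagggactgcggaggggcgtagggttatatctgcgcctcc
In Hmcn2 the capitals mark TGAGTCA, a match to the AP-1 motif TGANTCA, which begins 101 bases before the start. In Nid1 they mark GGAATG, the motif of TEAD factors, 165 bases before the start. Both strands were searched; TGANTCA can match both strands at the same place and was then counted as a promoter with a match, and GGAATG does not overlap it here. GGAATG occurred in 4 of the 34 promoters (Hmcn1, Nid1, Ogn and Thbs4) and in 14.66% of all 32851 promoters. TGANTCA occurred in 2 (Efemp1 and Hmcn2) and in 7.81% of all. The CArG box of SRF occurred in 1 (Lama2) and in 1.63% of all. These are shares of letters, and no binding was measured.

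Among the 12 basement membrane genes, 1 rose (Hmcn2) and 0 fell, against 0.942% of all genes in either direction. The laminins and perlecan lay close to their wildtype values. Hemicentins are very large proteins that tether neighbouring basement membranes. Hmcn2 (ENSMUSG00000055632) lies on the forward strand at chr2:31204427-31350750 of mm39. It held 53, 58 and 62 scaled reads in knockout replicates 1, 2 and 3 and 26, 18 and 28 in the wildtype replicates. The groups did not overlap, and no library stood far from the others of its group. The means were 57.7 ± 4.51 and 24 ± 5.29 (SD, n = 3 each), which gave a log2 difference of 1.25 (standard error, SE, 0.23) and a 95% interval from 0.74 to 1.76 (limma, adjusted p = 0.0472). This is 2.38-fold on the log2(value + 1) scale, from few reads. Its adjusted p lay between 0.0164 and 0.195 over 18 alternative fits and was under 0.05 in 10 of them. The adjusted p missed 0.05 without knockout replicate 1 (0.14) or without wildtype replicate 1, 2 or 3 (0.195, 0.118 and 0.179). Of all tested genes, 6, 3, 0 and 0 passed in these fits. The adjusted p of Hmcn2 also missed 0.05 without the intensity trend (0.0926), without robust moderation (0.0544), with voom (0.0545) and with a replicate block (0.12). Here 14, 90, 77 and 23 of all tested genes passed.

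The related Hmcn1 held 833, 814 and 795 in knockout and 638, 824 and 634 in wildtype libraries. Wildtype replicate 2 reached the knockout values, so the groups overlapped (log2 fold change 0.23, limma adjusted p = 0.294). Nid1, nidogen 1, which links the laminin and collagen IV networks, held 1905, 1879 and 1840 against 1514, 1691 and 1569. All knockout libraries were higher, with means of 1875 ± 32.7 and 1591 ± 90.6 (SD, n = 3 each). Its log2 fold change of 0.24 (SE 0.06) did not pass the test (limma, adjusted p = 0.114). Its partner Nid2 held 1071 ± 19.7 against 1108 ± 35.1 (SD, n = 3 each), with a log2 fold change of -0.05.

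Agrn, agrin, the proteoglycan that clusters receptors at the neuromuscular junction and is also found in heart basement membrane, held 1939, 2030 and 1917 against 1848, 1873 and 1831. The groups did not overlap, but the distance was small (log2 fold change 0.08, limma adjusted p = 0.503). Hspg2, perlecan, had the highest scaled value of the 44 genes, with 5653, 5879 and 5138 in knockout and 5493, 5008 and 5612 in wildtype libraries. These overlapped, and the 95% interval of the log2 fold change ran from -0.12 to 0.21.

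Laminins are trimers of an alpha, a beta and a gamma chain. Lama5, an alpha chain of vessel and epithelial basement membranes, was the only one of the 44 genes with every knockout library below every wildtype library. It held 1326, 1311 and 1452 against 1546, 1461 and 1494, and knockout replicate 3 lay just under the lowest wildtype library. The log2 fold change was -0.14 (limma, adjusted p = 0.317). Lamb2 held 1723, 1838 and 1615 against 1806, 1701 and 1845, with overlapping groups and a log2 fold change of -0.05 (adjusted p = 0.770). The remaining 4 laminin genes, Lama2, Lama4, Lamb1 and Lamc1, had log2 fold changes between -0.08 and 0.01. Lama2, the alpha chain of striated muscle, held 1057 ± 41.9 against 1120 ± 45.9 (SD, n = 3 each).

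Of the 11 elastic fibre and microfibril genes, 0 passed the test in either direction, by limma over all genes. Before adjustment 2 had a p under 0.05, Mfap5 and Fbn2, against 16.4% of all genes in either direction. With voom, a limma method for recovered reads, 0 passed as well. Elastin itself, Eln, held 1881, 2409 and 2660 in knockout and 2293, 1994 and 2292 in wildtype libraries. Knockout replicate 1 was the lowest and replicate 3 the highest of all 6 libraries, and the log2 fold change was 0.07 (limma, adjusted p = 0.831). It was -0.04 without knockout replicate 3 and 0.21 without knockout replicate 1, neither passing the test. Mfap4, a microfibril protein of the elastic fibre, held 390, 579 and 514 against 497, 478 and 521. Here too the knockout libraries spread to both sides of the wildtype libraries (log2 fold change -0.03, adjusted p = 0.930).

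Mfap5, which encodes the microfibril glycoprotein MAGP-2, held 385, 310 and 430 in knockout and 226, 277 and 257 in wildtype libraries. The groups did not overlap, with knockout replicate 2 nearest to the wildtype values. Its means were 375 ± 60.6 and 253 ± 25.7 (SD, n = 3 each), which gave a log2 difference of 0.56 (SE 0.13) and a 95% interval from 0.27 to 0.85. It did not pass the test with all libraries (limma, adjusted p = 0.081), but did without knockout replicate 2 (0.0148) or knockout replicate 3 (0.0372).

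Fibrillins form the core of the microfibrils. Fbn1 held 1410, 1525 and 1397 against 1303, 1345 and 1284, without overlap and with a log2 difference of 0.14 (limma, adjusted p = 0.304). Fbn2, the fibrillin most used in development, held 1266, 1416 and 1028 against 971, 1072 and 931. Knockout replicate 3 lay inside the wildtype range, and the log2 fold change was 0.31 (adjusted p = 0.225). Without that library it was 0.44 and passed the test (adjusted p = 0.00666).

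Fbln2, fibulin 2, a cushion and vessel protein that binds fibrillin and versican, held 1414, 1606 and 1451 against 1398, 1360 and 1411. Knockout replicates 1 and 3 lay just above the highest wildtype library, and the log2 fold change was 0.10 (limma, adjusted p = 0.50). Fbln1, Efemp2 and Emilin1 had log2 fold changes of -0.06, -0.06 and -0.07. Knockout replicate 3 held extreme values for Fbln5 and Efemp1, named here after their values were seen. Fbln5, fibulin 5, an elastin-binding protein, held 429, 584 and 792 against 526, 410 and 496, and its log2 fold change went from 0.30 to 0.08 without that library. Efemp1, fibulin 3, held 148, 123 and 38 against 113, 141 and 103. Its log2 fold change of -0.41 had a 95% interval from -1.62 to 0.81, and turned to 0.19 without that library, neither passing the test. In the same library, 6 of the 8 epicardial and mesothelial markers lay below the wildtype range (Upk3b, Upk1b, Msln, Aldh1a2, Krt19 and Lrrn4), whereas Wt1 lay above it and Tbx18 inside it. None of the 8 was at 0. The part of these cells in the Efemp1 value was not tested.

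Of the 3 lysyl oxidases, which crosslink elastin and collagen, 0 passed the test by limma, 0 had an unadjusted p under 0.05 and 0 passed with voom. Lox held 468, 566 and 1002 in knockout and 421, 460 and 415 in wildtype libraries. Every knockout library was higher, but knockout replicate 1 only just, whereas replicate 3 was more than 2-fold above each wildtype library. The means of 679 ± 284 and 432 ± 24.4 (SD, n = 3 each) gave a log2 fold change of 0.57 (SE 0.27, limma, adjusted p = 0.356). Without knockout replicate 3 the log2 fold change was 0.25 (adjusted p = 0.128). Loxl1 held 708, 866 and 691 against 724, 677 and 719 (log2 fold change 0.09, adjusted p = 0.675), with only knockout replicate 2 above the wildtype range. Loxl2 held 634, 753 and 664 against 702, 636 and 700, and the 95% interval of its log2 fold change, from -0.18 to 0.19, was centred near 0.

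Among the 8 genes for fibronectin, matrilin 2 and the matricellular proteins, 0 passed the test by limma or with voom. Before adjustment 3 had a p under 0.05, against 16.4% of all genes in either direction. Of the 8 fold changes 7 were above 0, against 49.8% of all genes. Thbs1, thrombospondin 1, a secreted protein that activates latent TGF-beta and restrains vessel growth, had the largest difference. It held 761, 865 and 1398 in knockout and 583, 560 and 462 in wildtype libraries. The groups did not overlap, and knockout replicate 3 lay far above the other knockout libraries. The means were 1008 ± 342 and 535 ± 64.3 (SD, n = 3 each), which gave a log2 difference of 0.87 (SE 0.23) and a 95% interval from 0.31 to 1.43, or 1.83-fold. This did not pass the test with all libraries (limma, adjusted p = 0.15). Without knockout replicate 3 the log2 fold change was smaller, 0.61, and passed (adjusted p = 0.00581). It also passed with a term for sex (0.036) and among the 4 male libraries (0.00787).

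Thbs4, a thrombospondin of muscle and tendon, held 339, 373 and 326 against 309, 291 and 303. All knockout libraries were higher, with means of 346 ± 24.3 and 301 ± 9.17 (SD, n = 3 each) and a log2 difference of 0.20 (limma, adjusted p = 0.252). Thbs2 lay at 0.01 on the same scale. Matn2, matrilin 2, an adaptor protein of the matrix network, held 504, 476 and 497 against 381, 457 and 441. The groups did not overlap, the means were 492 ± 14.6 and 426 ± 40.1 (SD, n = 3 each), and the log2 fold change was 0.21 (adjusted p = 0.241).

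Postn, periostin, a matricellular protein of valve and fibroblast matrix, held 2088, 2551 and 2106 against 2223, 2112 and 2363. The groups overlapped throughout, and the 95% interval of the log2 fold change ran from -0.19 to 0.20. Sparc, which binds collagen, held 1526, 1653 and 1439 against 1639, 1492 and 1799, again overlapping (log2 fold change -0.09, limma adjusted p = 0.629). Fn1, fibronectin, held 3037 ± 312 against 2899 ± 287 (SD, n = 3 each), which gave a log2 difference of 0.07. Tnc, tenascin C, held 464 ± 148 against 376 ± 62.4 (SD, n = 3 each), and its log2 fold change went from 0.26 to 0.03 without knockout replicate 2.

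The 6 small leucine-rich proteoglycans, which bind collagen fibrils and set their spacing, did not share a direction. By limma and with voom 0 passed the test. Before adjustment, Aspn was higher and Lum lower at a p under 0.05, against 16.4% of all genes in either direction. Aspn, asporin, held 669, 675 and 846 in knockout and 542, 591 and 598 in wildtype libraries. All knockout libraries were higher, with means of 730 ± 101 and 577 ± 30.5 (SD, n = 3 each) and a log2 difference of 0.33 (limma, adjusted p = 0.142). Lum, lumican, held 454, 566 and 465 against 608, 549 and 641. Only knockout replicate 2 reached the wildtype range, and the log2 fold change was -0.28 (adjusted p = 0.204). Fmod, fibromodulin, likewise had its highest knockout value in replicate 2, with 233, 435 and 280 against 467, 376 and 399. Without knockout replicate 2, Lum and Fmod passed the test at log2 differences of -0.38 and -0.69 (adjusted p = 0.0493 and 0.0193). With all libraries the value for Fmod was -0.43 (adjusted p = 0.389). Ogn, osteoglycin, held 598, 618 and 679 against 573, 593 and 618, and Dcn and Bgn, decorin and biglycan, lay at -0.13 and 0.03, none of them passing the test.

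In the hyaluronan and versican matrix, Vcan, the large proteoglycan that binds hyaluronan, held 1049, 1113 and 1097 in knockout and 926, 891 and 868 in wildtype libraries. The groups were tight and clearly apart, with means of 1086 ± 33.3 and 895 ± 29.2 (SD, n = 3 each). The log2 fold change of 0.28 (SE 0.06) did not pass the test with all libraries (limma, adjusted p = 0.0669) and passed without knockout replicate 3 (0.0338). Has2, the hyaluronan synthase of the cardiac cushions, held 16, 37 and 29 against 22, 15 and 20, few reads that overlapped. Hapln1, the link protein that joins versican to hyaluronan, held 60.3 ± 15 against 55 ± 9 (SD, n = 3 each). On the log2 scale the differences were 0.44 for Has2 and 0.12 for Hapln1 (limma, adjusted p = 0.548 and 0.835).

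Prg4, lubricin, a mucin-like glycoprotein best known from joint surfaces and also made by mesothelial linings, had the largest fold change of the 44 genes. It carries the identifier ENSMUSG00000006014 and lies on the reverse strand at chr1:150325163-150341916 of mm39. It held 259, 237 and 293 scaled reads in knockout replicates 1, 2 and 3 and 132, 95 and 88 in the wildtype replicates. The lowest knockout library stood well above the highest wildtype library. The means were 263 ± 28.2 and 105 ± 23.6 (SD, n = 3 each), which gave a log2 difference of 1.33 (SE 0.16) and a 95% interval from 0.97 to 1.70, or 2.52-fold (limma, adjusted p = 0.0202). Over 19 alternative fits its adjusted p lay between 0.00032 and 0.143 and was under 0.05 in 15. It missed 0.05 without the intensity trend of the fit (0.0879), without knockout replicate 1 (0.0754) and without wildtype replicate 2 or 3 (0.0974 and 0.143). In those fits 14, 6, 0 and 0 of all tested genes passed, in the same order. Rbpms missed 0.05 there as well (limma, adjusted p = 0.0574, 0.0523, 0.0967 and 0.133). Prg4 was highest in knockout replicate 3, the library with the lowest epicardial and mesothelial sum, and the part of these cells in its value was not tested.

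Prg4 overlaps Tpr, a nuclear pore gene on the other strand, and the sources used here do not give the strand setting of the read counting. Tpr held 1205 ± 56.2 against 1107 ± 37.4 (SD, n = 3 each), which gave a log2 difference of 0.12 (limma, adjusted p = 0.373). In all, 18 of the 44 genes overlap another gene of the table, 0 of them on the same strand. These are overlaps of whole gene spans, and exons were not compared. The libraries were stranded, per the labels' protocols. If counting did not use the strand, reads from stretches shared by exons of both genes cannot be told apart.

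**Figure D2:**
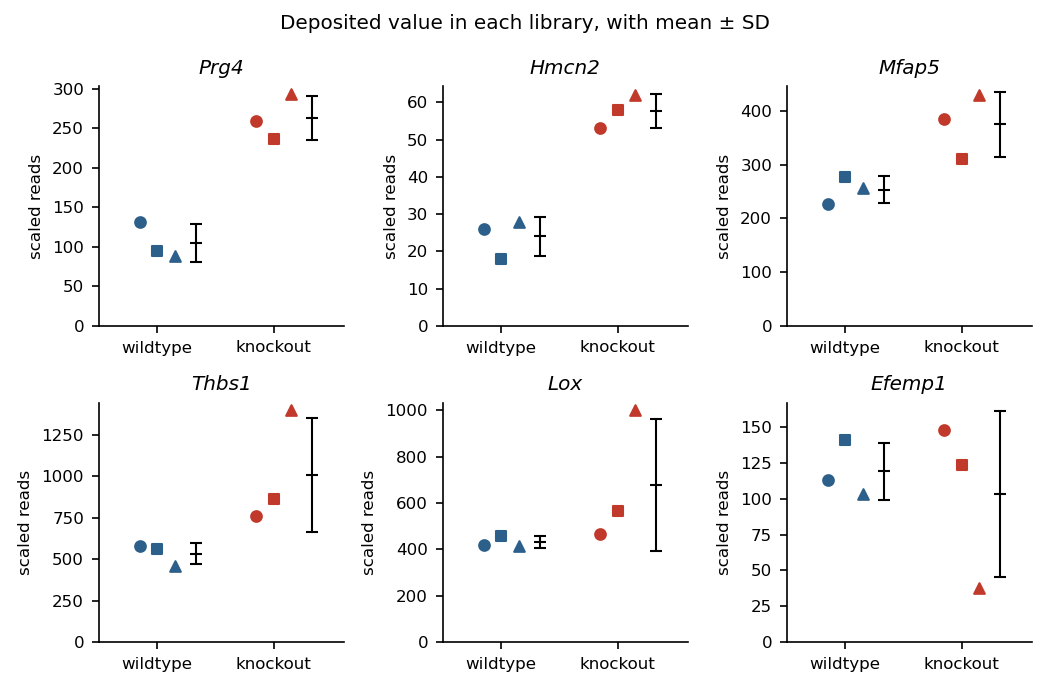
Scaled reads in each library (points, circle, square and triangle for replicates 1, 2 and 3) with mean ± SD (n = 3) for 6 genes, from an axis starting at 0. Prg4, Hmcn2 and Mfap5 show groups that do not overlap, whereas in Thbs1, Lox and Efemp1 knockout replicate 3 (1398, 1002 and 38 scaled reads) lies far from the other knockout libraries.

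Levels of different genes were compared per kb of exon, in scaled reads per kb over the wildtype libraries. Sparc was the highest at 434 ± 40.5 (SD, n = 3), followed by Hspg2, Lamb2, Eln and Lamc1 at 375, 293, 271 and 264. Hmcn2 was the lowest of the 44 genes at 1.49 ± 0.33, below Has2 at 4.48 ± 0.85 and Hapln1 at 9.32 ± 1.52 (SD, n = 3 each). Prg4 came next, at 24.5 ± 5.52 in wildtype and 61.4 ± 6.59 in knockout libraries (SD, n = 3 each). The genes that passed the test were therefore among the 4 with the lowest level per length. In the order of wildtype levels, 10 of 43 neighbouring pairs had values that did not overlap. Sparc and Hspg2 were such a pair, and so were Tnc and Hmcn1, Prg4 and Hapln1, and Has2 and Hmcn2, whereas the other 33 pairs, most of the middle of the order, could not be ranked beyond the spread of the libraries. The mean recovered reads per base of exon were at most 0.421 for any of the 44 genes. Over all genes with an exon length the maximum was 0.925. No gene held more than 6049 scaled reads in any library. In all knockout libraries and wildtype replicate 1 the highest value of any gene was that of Hspg2. Whether the processing limited high values was not tested, so levels and differences of abundant genes, markers among them, may be understated.

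**Figure D3:**
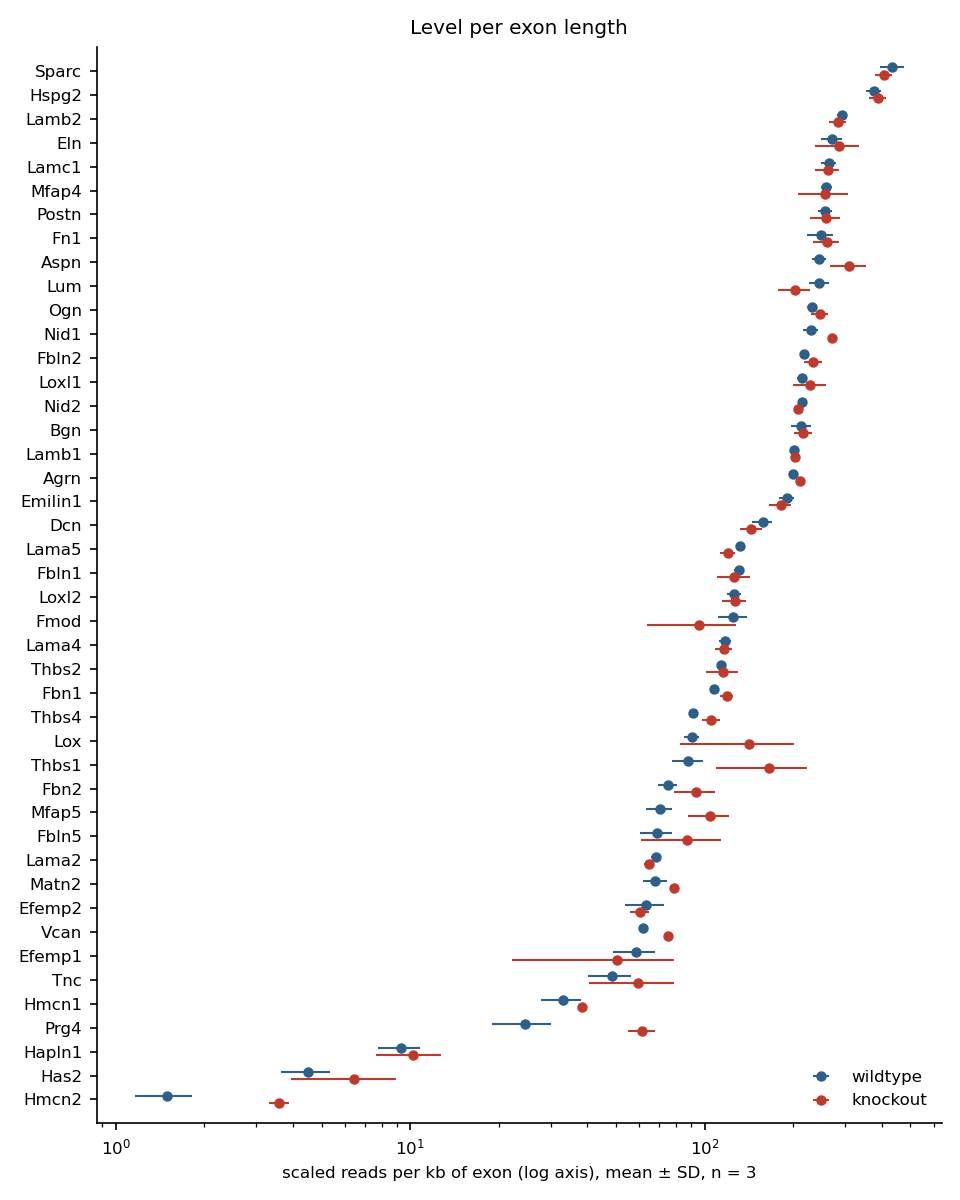
Scaled reads per kb of exon on a log axis, mean ± SD over 3 libraries of a group, for the 44 genes ordered by the wildtype mean. Sparc (434 in wildtype) stands at the top and Hmcn2 (1.49) at the bottom, and the distance between the groups is plain for Hmcn2 and Prg4 while the points of most other genes nearly coincide.

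The receptors that bind this matrix were read from a list of 34 genes, of which 33 were tested. By limma 4 rose and 0 fell, against 0.942% of all genes in either direction, with a median log2 fold change of 0.16. Sdc4, syndecan 4, a heparan sulfate proteoglycan of focal adhesions, held 393, 442 and 406 in knockout and 296, 293 and 275 in wildtype libraries (log2 fold change 0.52, adjusted p = 0.0243). Itga3, the integrin alpha chain that binds laminins, held 607, 670 and 669 against 458, 501 and 462 (0.45, adjusted p = 0.0308). In both genes the 3 wildtype libraries lay close together and below all knockout libraries. Cd44, the hyaluronan receptor, held 529, 502 and 405 against 252, 315 and 287 (0.74, adjusted p = 0.0315). Cspg4, the NG2 proteoglycan of pericytes, held 1096, 1246 and 1278 against 958, 858 and 860 (0.43, adjusted p = 0.0472). Knockout replicate 3 was the lowest knockout library for Cd44 and the highest for Cspg4, and none of the 4 genes overlapped between the groups. Each missed 0.05 without knockout replicate 1 and without wildtype replicate 1, 2 or 3, each left out alone. The adjusted p reached up to 0.177, 0.196, 0.195 and 0.223 for Sdc4, Itga3, Cd44 and Cspg4. Without knockout replicate 1 or wildtype replicate 1, 2 or 3, only 6, 3, 0 and 0 of all tested genes passed. Over 19 alternative fits, Sdc4, Itga3, Cd44 and Cspg4 had an adjusted p under 0.05 in 13, 13, 12 and 7.

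Of 51 tested genes for matrix proteases, their inhibitors and matrix processing, 1 rose and 0 fell, against 0.942% of all genes in either direction. The median log2 fold change was 0.05. The gene that rose was Adamts9, a protease that cleaves versican, which held 648, 565 and 650 against 425, 479 and 453 (log2 fold change 0.46, limma adjusted p = 0.0464). It kept an adjusted p under 0.05 in 7 of 19 alternative fits, and the 4 male libraries gave 0.0685. Of 61 tested further matrix glycoproteins and proteoglycans, 0 passed the test by limma and 0 with voom, and the median was 0.13. Without adjustment 10 were higher and 5 lower at a p under 0.05, against 16.4% of all genes in either direction. The smallest p was that of Ccn2, a matricellular protein induced by TGF-beta and YAP, with 1214, 956 and 1617 against 665, 641 and 566. These groups did not overlap, and the log2 fold change was 0.99 (adjusted p = 0.0615). Like Thbs1, Ccn2 was highest in knockout replicate 3 and passed the test without that library (0.0023).

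Cell type markers were summed over each list to set beside these values, and 0 markers of any list passed the test by limma. The 8 fibroblast markers in the table, which include the main collagen genes, summed to 11444 to 13372 in knockout and 11658 to 13655 in wildtype libraries, with Lamp5 not listed. Of these, 2 of 8 were higher in every knockout library (Tcf21 and Dpep1), against 11.0% of all genes. The fold changes of 6 of the 8 were below 0, and the abundant collagen genes weigh most in the sum. The 8 valve markers summed to 2828 to 3317 against 2806 to 2868, with knockout replicate 2 the highest. Here too 2 of 8 were higher in every knockout library (Sox9 and Penk), against 11.0% of all genes, and 3 of the 8 fold changes were below 0. Tbx20 weighs most in the valve sum, with 1767, 2111 and 1826 scaled reads in knockout and 1883, 1889 and 1929 in wildtype libraries. The 7 endothelial markers summed to 7008 to 7485 against 6727 to 7172, with 4 of 7 higher in every knockout library, against 11.0% of all genes. The 7 smooth muscle and pericyte markers summed to 3947 to 4432 against 4331 to 4801, with 3 of 7 lower in every knockout library, against 10.9% of all genes. The sums of the groups overlapped in both lists. The 6 proliferation markers summed to 1065 to 1858 against 1759 to 2273. The labelled tissue was checked with 8 cardiomyocyte markers, all of which were tested, and they summed to 22066 to 24562 against 23241 to 25491. The proliferation sum was lowest in knockout replicate 1, and the cardiomyocyte sums of the groups overlapped. The 7 leukocyte markers in the table summed to 712 to 837 against 779 to 848, with Cd3e not listed. Of markers of neighbouring tissue, those of lung epithelium summed to at most 9 scaled reads and those of liver to at most 93. Skeletal muscle markers summed to 72 to 109 against 82 to 160, and cartilage markers to 431 to 504 against 426 to 492. Sftpc, Sftpa1 and Nkx2-1 of lung, Serpina1a of liver, Pax7 and Myf5 of skeletal muscle and Snorc and Matn1 of cartilage were not listed in the table. The part of any of these sums in the values of the 44 genes was not tested.

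**Figure D4:**
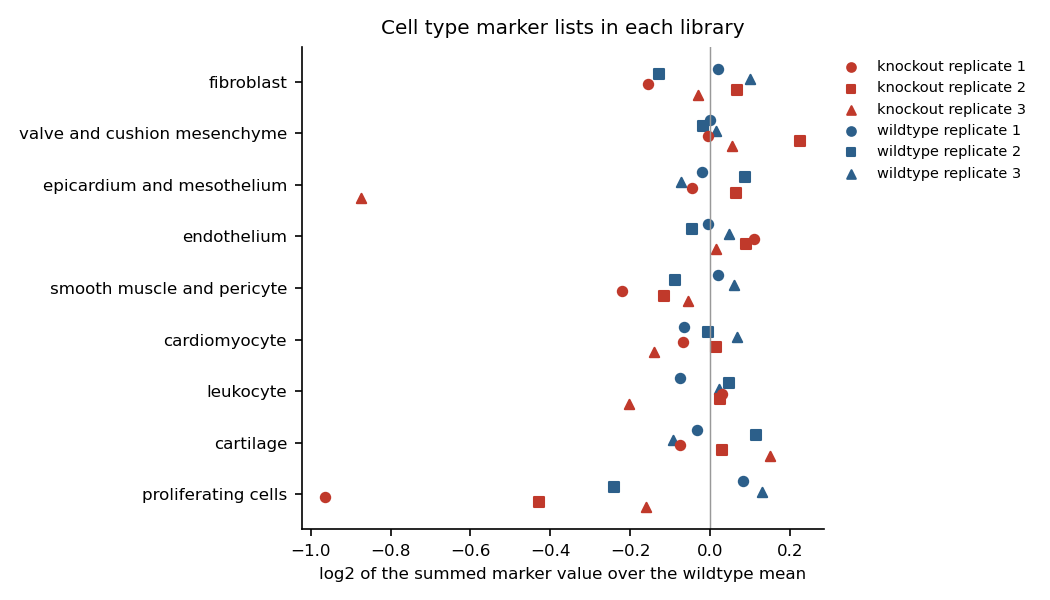
Summed scaled reads of each marker list in each library, as log2 of the ratio to the wildtype mean, for the 9 lists whose sum reached at least 400 in every library. The epicardial and mesothelial sum of knockout replicate 3 and the proliferation sum of knockout replicate 1 (1013 and 1065 scaled reads) lie far to the left, whereas fibroblast, endothelial and cardiomyocyte sums lie close to 0.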

How the data were processed

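RNA-seq values of 6 mouse heart libraries, 3 knockout and 3 wildtype, were analysed. Libraries were stranded mRNA libraries read from a single end, per the labels' protocols. The submitters' processing notes name Trimmomatic 0.39, STAR 2.7.11a, Picard 3.0.0, featureCounts 2.0.4, DESeq2 1.36.0 and the build mm39, with no roles. The values the authors deposited have the unit score here: from their spacing, they are reads times a library factor, rounded to whole numbers. The factors estimated here from values under 400 were 0.937, 1.04 and 0.852 (knockout replicates 1 to 3) and 1.04, 0.957 and 1.18 (wildtype). In the libraries with a factor under 1, 12.01%, 31.01% and 7.26% of values could come from more than 1 read number, so no count model was run, although the design allowed for it had the values been raw counts.

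Groups were compared with limma 3.58.1 (statmod 1.5.0, R 4.3.3) after log2 transformation with a pseudocount of 1, using its trend and robust options, over 14974 of 20893 genes with at least 10 in at least 3 libraries. Benjamini-Hochberg adjustment covered all of them, with a threshold of 0.05. Fold changes on this scale understate the change of low genes. Scripts were tested on simulated data. Exon lengths came from GENCODE M21 (GRCm38). The 44 genes and all lists were chosen with earlier results of these data known. Values in every library are given for genes that passed the test or whose groups did not overlap, and, in each role, for the 2 with the smallest p and the 2 with the highest level per length. Of the other lists, up to 4 genes that passed are named, or else the gene with the smallest p. Alternatives changed pseudocount, filter, scaling, moderation, covariates and libraries. Replicate numbers are not stated to mark a litter, batch or day, and were not used as pairs.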

Additional observations from a re-analysis of the deposited data

How the results depend on the processing

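The number of tested genes that passed the test, 141 with 76 higher and 65 lower, was 218 without a filter on low values, 78 for genes with a mean of at least 50, 90 without robust moderation, 14 without the intensity trend, 77 with voom on recovered reads (30 higher, 47 lower), 223 with a term for sex and 256 among the male libraries, an alternative chosen after seeing the data. Upper-quartile scaling gave 52 higher and 78 lower and shifted the median of all genes to -0.04. Leaving out 1 library gave 0 to 727. Of the 44 matrix genes, 2 passed in the reported fit. This was 1 at a mean of at least 50, where Hmcn2 was not tested, 1 without robust moderation, 0 without the intensity trend, 1 with voom and 4 among the male libraries (Fbn2, Hmcn2, Prg4 and Thbs1). Without 1 library it ran from 0 to 6: 0 without knockout replicate 1 or wildtype replicate 2 or 3, 1 without wildtype replicate 1, 5 without knockout replicate 2 and 6 without knockout replicate 3. All genes passed at 3.41% and 4.86% in those last 2 fits.

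The median of the 44 genes ran from 0.006 to 0.12 without 1 library. The fold changes of 26 of the 44 genes kept their sign in every alternative, among them all 13 that lay above wildtype in every knockout library. For those 13 this was nearly fixed by how they were picked, since leaving out libraries cannot turn the sign of groups that do not overlap. No named gene that passed changed sign, and the groups of these genes did not overlap either. Of the receptors, 4 in the reported fit, 0 passed without the intensity trend, 2 with voom and 0 to 8 without 1 library, with medians from 0.047 to 0.225. Of the protease and processing genes, 1 in the reported fit, 0 passed at a mean of at least 50, with quantile normalization, with TMM factors, without robust moderation, without the intensity trend and with voom. With a term for sex and among the male libraries 2 passed, and 0 to 7 without 1 library. Their median of 0.05 was 0.10 with quantile normalization and 0.10 among the male libraries, and 0.03 to 0.08 without 1 library. Of the further glycoproteins, 0 in the reported fit, 1 passed without robust moderation, 3 with a term for sex, 2 among the male libraries and 0 to 3 without 1 library, with medians from 0.04 to 0.17. The highest counts of these lists without 1 library, 8, 7 and 3, came without knockout replicate 2 or 3. In those 2 fits 3.41% and 4.86% of all genes passed. Without knockout replicate 1 or wildtype replicate 1, 2 or 3, only 6, 3, 0 and 0 of all genes passed. With a term for sex 1.49% of all genes passed, and among the male libraries 1.71%. Quantile normalization and TMM factors passed 108 and 103 of all genes. The causes of these changes were not tested, other than that fewer libraries or fewer genes were fitted.

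With the replicate number as a block, 23 genes passed in all, 1 of the 44 matrix genes (Prg4), 0 receptors, 1 protease or processing gene (Adamtsl5, while Adamts9 lost its call) and 1 further glycoprotein (Fras1, lower), both named after their values were seen. Same-numbered libraries did not deviate together, with correlations of -0.17, -0.11 and -0.13, against -0.02 to 0.14 for the other pairs. With 3 libraries in each group, and female libraries that carry different numbers, this cannot exclude a shared litter or batch. Where a group of 3 loses a library, 2 remain, and Has2 and Hmcn2 rest on few reads, which limits what their values can show. Count models were not run, since the deposited values are scaled and rounded.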
